A study of Mus musculus with 6 samples.

Results

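The genes described here are 10 genes of blood vessel walls, chosen by symbol from the 55367 symbols of an expression table of dentate gyrus cells. The contractile genes are Acta2, Tagln, Myl9, Myh11, Tpm2 and Cald1, and the pericyte genes are Rgs5, Vtn, Kcnj8 and Pdgfrb. All 10 symbols were found in the table. They were chosen for what they are known to do, with earlier results of these data known.

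The values came from 6 Smart-seq2 libraries of tdTomato-positive cells, labelled as neurons, sorted from the dentate gyrus of TRAP2;Ai9 mice. These mice, also described as Fos-iCreERT2; Rosa26-LSL-tdTomato, carry a drug-inducible Cre recombinase driven by Fos, an activity gene, together with a red reporter that Cre turns on, so a cell is marked if Fos was active while the inducing drug was present, whatever its type. All mice had gone through learned helplessness (LH+), a stress procedure after which animals stop escaping, and 3 libraries came from mice with 28 days of voluntary running (Run) and 3 from mice without it (NR). Age, sex, and the numbers of animals and of cells behind a library are not given in the sources used here, so p-values speak of the spread from library to library alone, which may be technical.

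Mural cells wrap the vessels of the brain. Smooth muscle cells form rings around arteries and arterioles and contract through actin, smooth muscle myosin and tropomyosin, while pericytes sit on capillaries and help keep the blood-brain barrier tight. Endothelial cells recruit both by releasing PDGF-B, which binds the receptor encoded by Pdgfrb. Many contractile genes are switched on by serum response factor and its partner myocardin, which act at a short DNA element called the CArG box. None of these genes is a classical marker of neurons, and several of them, such as Myl9, Tpm2 and Cald1, are also used by other cells.

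The CArG box sequences are shown first because they are the element that contractile genes are known to share. RefSeq promoter windows of build GRCm38.p6, each 300 bases long and reaching from 250 bases before to 50 bases after a start site, were matched to 7 of the 10 members through 8 windows, Cald1 having 2. The windows were searched for a CArG box with no mismatch or 1 mismatch, which reads alike on both strands, and each match is given 5′ to 3′ on the strand of the gene with the box in capitals. Positions count from the start site of the window.
Myl9, positions -161 to -152, no mismatch, chr2:156775293-156775322, plus strand: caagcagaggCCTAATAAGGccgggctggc
Myl9, positions -99 to -90, 1 mismatch, chr2:156775355-156775384, plus strand: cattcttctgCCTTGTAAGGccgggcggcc
Acta2, positions -84 to -75, 1 mismatch, chr19:34255438-34255467, minus strand: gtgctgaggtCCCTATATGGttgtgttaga
Acta2, positions -34 to -25, 1 mismatch, chr19:34255388-34255417, minus strand: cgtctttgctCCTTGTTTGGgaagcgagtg
Cald1, positions -203 to -194, 1 mismatch, chr6:34598291-34598320, plus strand: acggtttcaaGCTTTTTAGGacttggtttt
Kcnj8, positions -46 to -37, 1 mismatch, chr6:142571641-142571670, minus strand: gagcagcgagCCTTTTAAAGatgtgtgtgc

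Myl9 and Acta2 each held a pair of boxes, and Myl9 alone among the matched members held one without a mismatch. Of all 32851 promoter windows in the RefSeq table, 1.63% held a box without mismatch and 21.1% held one with at most 1 mismatch. Every box shown with 1 mismatch, those of Acta2 included, is therefore of a common kind. The share of windows with a pair of boxes was not computed. GENCODE M21 places both Acta2 stretches in a 5′ untranslated exon of a longer Acta2 transcript, and the other 4 stretches lie outside annotated exons of their gene. The TATAAA motif, searched on both strands, was found in the Vtn window and in 1 of the 2 Cald1 windows, against 13.6% of all windows, and overlapped no CArG box. The windows of Rgs5 and Tpm2 held neither motif. Tagln, Myh11 and Pdgfrb had no window and were not searched. A match describes these letters and does not show that a factor binds there.

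Myl9 and Acta2 were the most abundant of the 10 genes, in cells sorted for tdTomato and labelled as neurons. Among all symbols of a library, Myl9 ranked between 33 and 408 and Acta2 between 49 and 449. Levels are in FPKM, which are scaled by transcript length and library size, so genes can be ordered within a library. Averaged over the 6 libraries, Myl9 stood highest at 599 ± 471 FPKM (SD, n = 6), followed by Acta2 at 426 ± 305, Tagln at 161 ± 111 and Rgs5 at 88.9 ± 37.3. Tpm2 averaged 155 and Cald1 38.6 FPKM, each with 1 library below 1 FPKM. Myl9 was above Acta2 in 5 of 6 libraries and Acta2 above Tagln in 6 of 6. Tagln exceeded Tpm2 in 4 of 6 libraries, and Tpm2 exceeded Rgs5 in 4 of 6, so these neighbours in the order did not separate beyond their spread. The rest of the order was uneven: Vtn averaged 25.8, Myh11 2.51 and Pdgfrb 2.37 FPKM, each from 1 or 2 libraries, and Kcnj8 was listed at 0 in all 6.

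**Figure D1:**
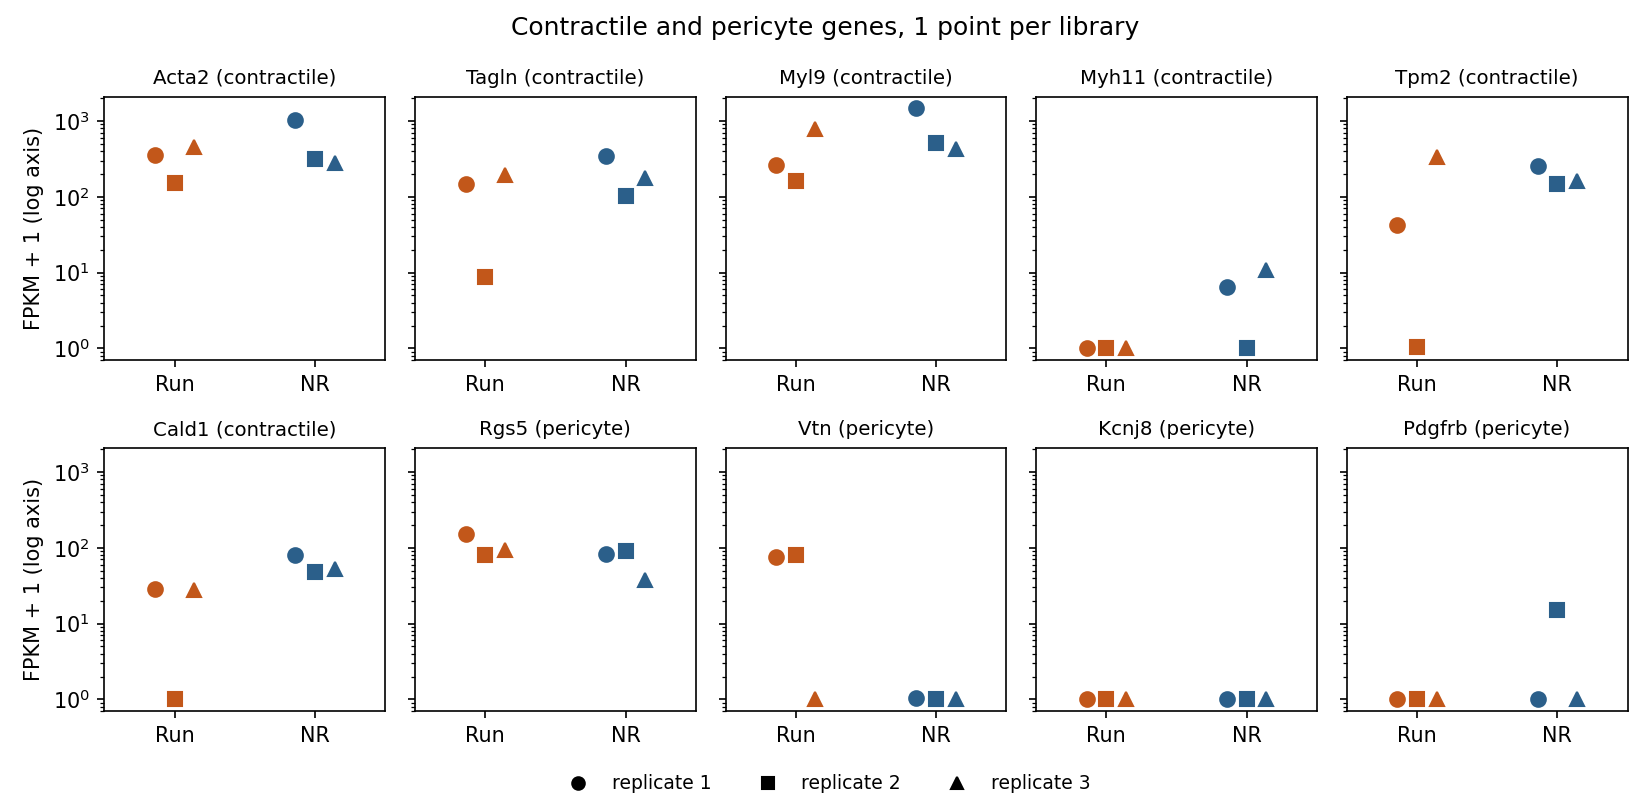
FPKM + 1 of each of the 10 members on a log axis, with Run on the left and NR on the right and 1 point per library, its shape giving the replicate number. Run replicate 2 is the lowest point for Acta2, Tagln, Myl9, Tpm2 and Cald1, while Kcnj8 is at 0 throughout and Vtn is high in Run replicates 1 and 2 only.

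Acta2 (chromosome 19, 34241090 to 34255590, minus strand, GENCODE M21) encodes smooth muscle alpha-actin, the thin filament of the contractile apparatus. Its level was 350, 150 and 457 FPKM in Run replicates 1, 2 and 3, against 1015, 311 and 274 FPKM in NR replicates 1, 2 and 3. The groups overlapped, with NR replicate 1 well above the other 5 libraries and Run replicate 2 below them. On the log2(FPKM + 1) scale used for all differences here, the Run minus NR difference was -0.62 ± 0.66 (SE; 95% interval -2.17 to 0.94), and without NR replicate 1 it was -0.02.

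Myl9 (chromosome 2, 156775420 to 156781658, plus strand) encodes the regulatory light chain whose phosphorylation starts contraction in smooth muscle. It measured 261, 162 and 781 FPKM in Run and 1457, 506 and 430 FPKM in NR. Run replicate 3 lay inside the NR range and the other Run libraries below it, and NR replicate 1 was again the highest. The difference was -1.09 ± 0.71 (SE; 95% interval -2.77 to 0.60), and it was -0.59 without Run replicate 2 and -0.54 without NR replicate 1.

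Tagln (chromosome 9, 45929619 to 45936058, minus strand) encodes transgelin, an actin-binding protein of smooth muscle. The Run libraries had 147, 7.72 and 192 FPKM and the NR libraries 342, 100.2 and 178. Run replicate 2 was far below every other library, whereas Run replicates 1 and 3 lay within the NR range. The difference was -1.55 ± 1.25 (SE; 95% interval -4.50 to 1.40), and -0.12 without Run replicate 2.

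Tpm2 (chromosome 4, 43514711 to 43523765, minus strand) encodes beta-tropomyosin, which runs along the actin filament. It had 41.4, 0.0320 and 330 FPKM in Run, against 254, 145 and 161 FPKM in NR. The Run libraries held both the highest and the lowest value, so the spread within Run was far wider than within NR. The difference was -2.90 ± 1.94 (SE; 95% interval -7.49 to 1.69), -0.62 without Run replicate 2 and -4.78 without Run replicate 3.

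Cald1 (chromosome 6, 34598500 to 34775473, plus strand) encodes caldesmon, which restrains actin and myosin interaction and also has a form found outside muscle. Its values were 28.0, 0.00492 and 27.1 FPKM in Run and 78.8, 46.2 and 51.5 FPKM in NR. Cald1 was the 1 tested member whose groups did not overlap, every Run library lying below every NR library. Of all tested genes, 4.19% showed that order, 4.76% had every Run library above every NR library and 8.95% did not overlap in either direction, so 1 of 6 tested members is read as a description. The difference was -2.64 ± 1.49 (SE; 95% interval -6.16 to 0.89), and -1.03 without Run replicate 2, with the groups still apart.

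Myh11 (chromosome 16, 14194535 to 14291372, minus strand) encodes the smooth muscle myosin heavy chain, the most restricted marker of the mature smooth muscle cell among these genes. It had 0.0109, 0 and 0 FPKM in Run, against 5.36, 0 and 9.71 FPKM in NR. Both libraries above 1 FPKM were NR libraries, and the gene did not reach the filter for testing, which asked for at least 1 FPKM in at least 3 libraries. Its annotated coding transcripts are 6214 to 6549 bases long, the longest among the members.

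Rgs5 (chromosome 1, 169655501 to 169695813, plus strand) encodes a regulator of G protein signalling and is abundant in pericytes and in vascular smooth muscle. It was the steadiest member, with a coefficient of variation of 41.9% over the 6 libraries, against 68.8% to 80.2% for the 5 tested contractile genes. Its level was 152, 78.9 and 93.7 FPKM in Run and 81.1, 90.7 and 36.6 FPKM in NR. The groups overlapped, Run replicate 1 being the highest and NR replicate 3 the lowest. The difference was 0.68 ± 0.65 (SE; 95% interval -0.86 to 2.22), and 0.28 without NR replicate 3. Its value in Run replicate 2 lay inside the NR range.

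The other pericyte genes were found in few libraries. Vtn (chromosome 11, 78499091 to 78502324, plus strand), which encodes the matrix protein vitronectin made in brain by pericytes, had 74.5, 80.3 and 0 FPKM in Run and 0.0375, 0 and 0 FPKM in NR. Both high values were Run libraries, but Run replicate 3 was listed at 0 like NR replicates 2 and 3, and the gene was not tested. Pdgfrb (chromosome 18, 61045150 to 61085061, plus strand), the PDGF-B receptor that pericytes need for recruitment, exceeded 1 FPKM only in NR replicate 2, at 14.2. Its Run values were 0, 0 and 0.005345 FPKM, and NR replicates 1 and 3 were listed at 0. Kcnj8 (chromosome 6, 142564837 to 142571614, minus strand), the pore subunit of the vascular ATP-sensitive potassium channel, was listed at 0 in every library. A 0 in a table of FPKM may stand for an estimate that failed, so these genes are said to be listed at 0 and not to be absent.

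The comparison of Run with NR asks how running after stress changed expression in the marked cells. No member passed. Of the 10 members, 6 were tested, and each had a limma adjusted p = 0.978 over all 6155 tested genes. Among all tested genes, 0 (0%) reached an adjusted p under 0.05 in either direction. An unadjusted p under 0.05 was reached by 304 genes (4.94%), 151 higher in Run (2.45%) and 153 lower (2.49%), and by 0 of the 6 tested members. The lowest unadjusted p of a member was that of Cald1, 0.120. The 5 tested contractile genes had lower mean log2 values in Run and Rgs5 had a higher one, where 51.1% of all tested genes had a difference below 0 and 48.9% one above 0. The median difference was -1.55 for the 5 contractile genes, 0.68 for Rgs5 alone among the pericyte genes, and -0.03 for all genes tested. Without Run replicate 2 the contractile median was -0.59. The intervals all include 0 and also include differences of more than 2-fold in at least 1 direction, so these data do not fix the size of any change. In libraries of sorted cells, fewer cells of a type and less RNA per cell cannot be told apart.

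**Figure D2:**
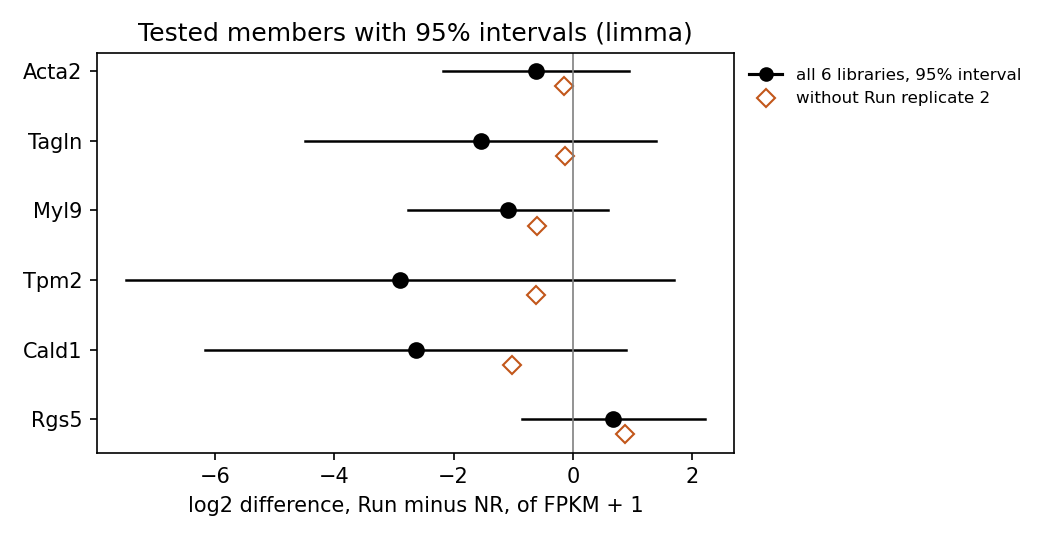
Run minus NR difference on the log2(FPKM + 1) scale for the 6 tested members, with the limma 95% interval from all 6 libraries as a line and the value without Run replicate 2 as an open diamond. Every interval crosses 0, and the contractile genes lie nearer to 0 without that library, Tpm2 at -0.62 in place of -2.90.

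The tested contractile genes shared their lowest library. Run replicate 2 was the lowest library for 5 of the 5 tested contractile genes, whereas 13.6% of all tested genes, and 23.7% of the 1751 genes with at least 1 FPKM in all libraries, had their lowest value there. Only 4253 of the 6155 tested genes had a single lowest library, which lowers the first share, while each of the 1751 genes had one. NR replicate 1 was the highest library for Acta2, Myl9, Tagln and Cald1, and Run replicate 3 for Tpm2. The share of all genes highest in a given library was not computed. Summed over the 6 contractile genes, the level was 827, 319 and 1786 FPKM in Run replicates 1, 2 and 3, against 3153, 1108 and 1104 FPKM in NR replicates 1, 2 and 3. Run replicate 3 lay inside the NR range and the other Run libraries below it. The pericyte genes summed to 227, 159 and 93.7 FPKM in Run and 81.1, 105 and 36.6 FPKM in NR, an order unlike that of the contractile genes.

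The balance between both kinds of gene ranged widely. The contractile sum divided by the pericyte sum was 3.65, 2.01 and 19.1 in Run and 38.9, 10.6 and 30.2 in NR. Against Rgs5 alone, the ratios were 5.43, 4.05 and 19.1 in Run and 38.9, 12.2 and 30.2 in NR. The second version leaves out Vtn, at 74.5 and 80.3 FPKM in Run replicates 1 and 2. It also leaves out Pdgfrb, at 14.2 FPKM in NR replicate 2. In both versions Run replicates 1 and 2 were below all NR libraries and Run replicate 3 was above NR replicate 2, so the groups overlapped. These ratios rest on the chosen members and carry no test.

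**Figure D3:**
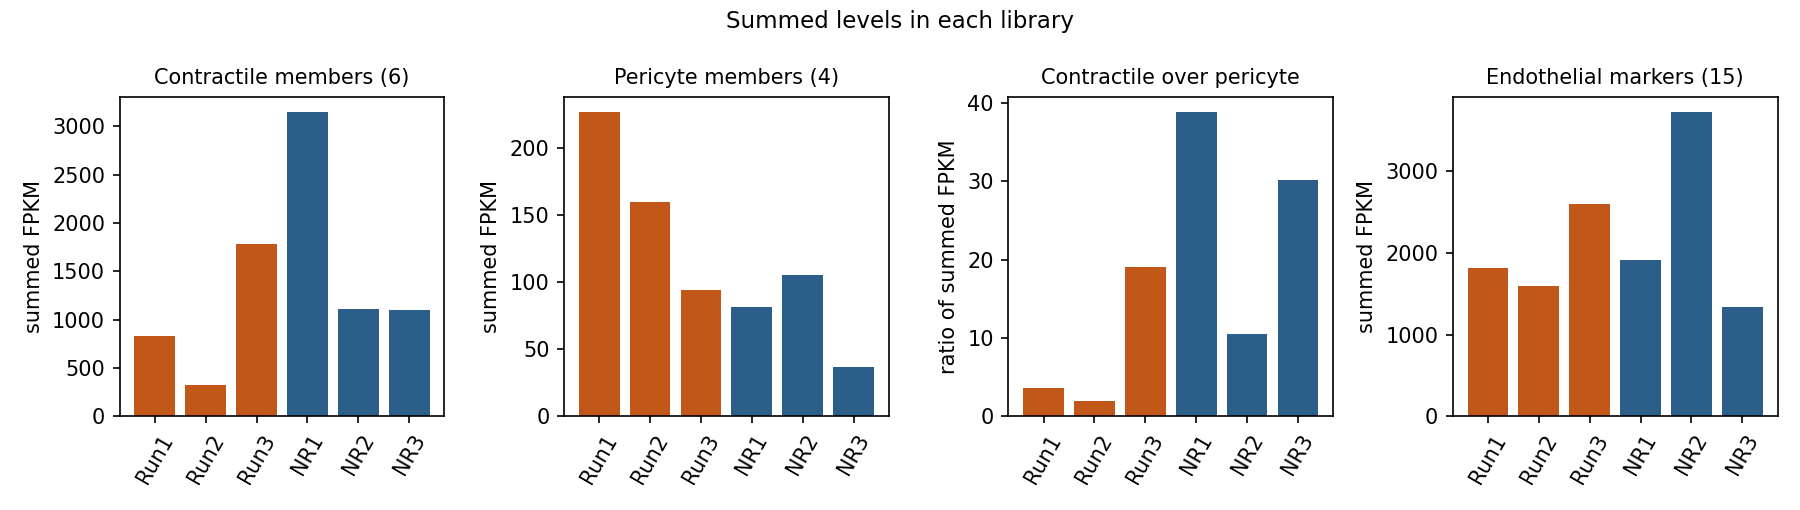
Summed FPKM of the 6 contractile members, of the 4 pericyte members and of 15 endothelial markers, and the contractile over pericyte ratio, as 1 bar per library with Run on the left. The contractile sum peaks in NR replicate 1 at 3153 FPKM and is lowest in Run replicate 2 at 319 FPKM, the pericyte sum is highest in Run replicate 1 at 227 FPKM, and the endothelial sum is highest in NR replicate 2 at 3725 FPKM.

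Within a library the contractile genes kept different proportions. Myl9 was 0.745, 1.08 and 1.71 times Acta2 in Run and 1.44, 1.63 and 1.57 times Acta2 in NR, so Run replicate 1 was the 1 library in which Acta2 was the higher of the pair. Tagln was 0.420, 0.0516 and 0.420 times Acta2 in Run and 0.337, 0.322 and 0.650 times in NR. Tagln, Tpm2 and Cald1 were therefore low in Run replicate 2 beyond the drop in Acta2 itself, Tpm2 and Cald1 being under 0.1 FPKM there while Acta2 had 150 FPKM.

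The contractile genes were next set beside their paralogs, since near-identical transcripts can share reads. Of the distinct runs of 50 bases in the annotated Acta2 transcripts, 0.326% also occur in transcripts of other genes, and 0.340% of those of Myh11 do, nearly all of the members' sequence being their own. The other 8 members shared no run of 50 bases with another gene, and none of the 10 shared a run of 100. Of the muscle actin paralogs, Actc1, of heart muscle, was listed at 0 in all libraries, and Acta1, of skeletal muscle, stayed between 0.104 and 0.294 FPKM. Actg2, the gamma-actin of visceral smooth muscle, had 0, 44.0 and 0.0309 FPKM in Run and 0 in all NR libraries. Its 1 high value fell in Run replicate 2, the library lowest in Acta2.

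The widely used actins were steadier than Acta2. Actb, the beta-actin of all cells, had 2229, 1711 and 2855 FPKM in Run and 2031, 2191 and 2426 FPKM in NR, a difference of 0.00 ± 0.22 (SE). Acta2 was 15.7%, 8.74% and 16.0% of Actb in Run and 49.97%, 14.2% and 11.3% in NR. Actg1, the other cytoplasmic actin, had a difference of 0.23 ± 0.38 (SE).

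Among light chains, Myl6, the essential light chain of smooth and non-muscle myosin, had 377, 220 and 1094 FPKM in Run and 1224, 847 and 604 FPKM in NR. As for Myl9, NR replicate 1 was its highest library and Run replicate 2 its lowest. Myl12b, a regulatory light chain of non-muscle myosin, was level by comparison, at 115, 128 and 107 FPKM in Run and 109, 106 and 74.2 FPKM in NR. Its relative Myl12a had 86.6, 19.6 and 137 FPKM in Run and 63.1, 139 and 119 FPKM in NR, with Run replicate 2 again lowest.

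Among tropomyosins, Run replicate 2 was the lowest library for Tpm3 as for Tpm2, and not for Tpm1 or Tpm4. Tpm3 had 93.7, 15.2 and 134 FPKM in Run and 46.2, 93.5 and 81.2 in NR. Tpm1 had 160, 86.4 and 141 FPKM in Run and 204, 68.3 and 84.4 in NR, and Tpm4 had 192, 37.0 and 269 FPKM in Run and 170, 33.7 and 194 in NR. Both Tpm1 and Tpm4 were lowest in NR replicate 2, and their groups overlapped. Of the transgelin paralogs, Tagln2 had 29.6, 13.95 and 67.8 FPKM in Run and 76.8, 106 and 165 in NR. Every Run library of Tagln2 lay below every NR library, an order shown by 4.19% of all tested genes, and Run replicate 2 was lowest. Tagln3 had 585, 513 and 254 FPKM in Run and 94.8, 304 and 619 in NR, with overlapping groups. Of the 19 partners and paralogs listed, 17 were tested, 8 with a positive and 9 with a negative difference. None passed by limma, and the median difference was -0.11. The lowest limma unadjusted p among these 17 was that of Tagln2, 0.059, with a difference of -1.82 ± 0.81 (SE).

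**Figure D4:**
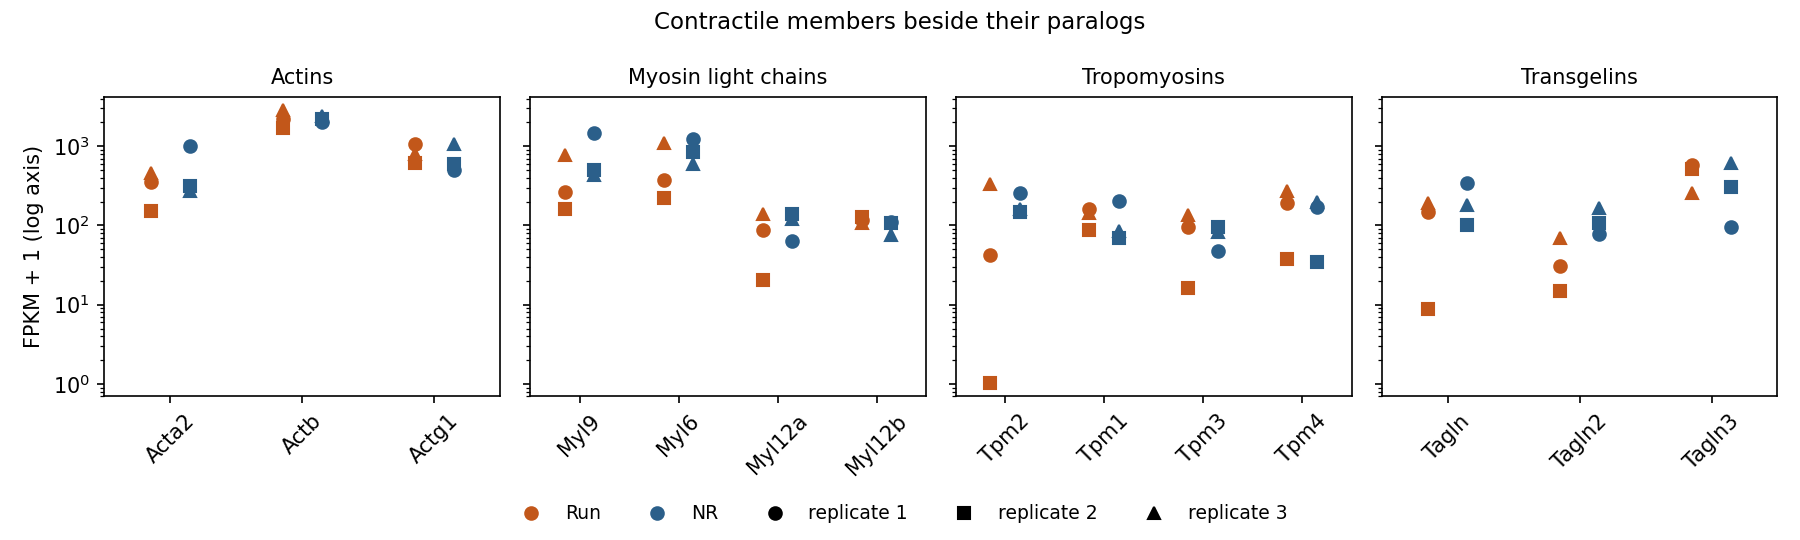
FPKM + 1 on a log axis of Acta2, Myl9, Tpm2 and Tagln beside their paralogs, with Run in orange on the left and NR in blue on the right of each gene and 1 point per library, its shape giving the replicate number. Actb stays between 1711 and 2855 FPKM, while Acta2 ranges between 150 and 1015 FPKM and Tpm2 between 0.0320 and 330 FPKM.

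The rest of the smooth muscle programme was found sparsely and unevenly. Of 16 other smooth muscle genes, 3 were tested (Sncg, Mustn1 and Mylk), all with a negative difference, and none passed. Sncg, which encodes gamma-synuclein and is also expressed in some neurons, had 23.3, 38.9 and 74.3 FPKM in Run and 193, 37.4 and 211 FPKM in NR, with NR replicate 2 inside the Run range. Mustn1, a small nuclear protein of muscle and skeletal tissue, had 105, 0 and 47.5 FPKM in Run and 76.8, 41.9 and 35.7 FPKM in NR. Pln, which encodes the calcium pump inhibitor phospholamban, was found in 1 library of each group, at 96.5 FPKM in Run replicate 3 and 62.7 FPKM in NR replicate 2. The number of these 16 genes at 1 FPKM or more was 3, 4 and 7 in Run and 5, 8 and 4 in NR, so no group had the fuller set.

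Factors that control the contractile genes were also found unevenly. Of the 16 regulators found, 5 were listed at 0 in all libraries, among them Notch3, the receptor that maintains arterial smooth muscle. Srf, which binds the CArG box, exceeded 1 FPKM only in Run replicate 2, at 16.4, and its partner Myocd had 0, 0 and 0 FPKM in Run and 0, 8.73 and 5.49 in NR. Both were chosen after their values were seen, because of the boxes shown above. The most abundant regulator, the Notch target Hey1, had 47.0, 115 and 47.6 FPKM in Run and 0, 0.502 and 81.9 FPKM in NR, with NR replicate 3 inside the Run range. Mrtfb, a cofactor of serum response factor, had 10.4, 16.2 and 11.2 FPKM in Run and 0, 33.0 and 21.6 FPKM in NR. Ednra, the endothelin receptor that constricts smooth muscle, had 0, 39.0 and 0 FPKM in Run and 58.6, 1.82 and 0 FPKM in NR. None of the 5 tested regulators passed, 2 having a positive and 3 a negative difference.

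Other pericyte genes also varied from library to library. Of 20 listed, 4 were tested, 1 with a positive and 3 with a negative difference, and none passed. Higd1b, a mitochondrial protein gene enriched in pericytes, had 0.0994, 0.0608 and 0 FPKM in Run and 315, 67.1 and 0.0475 FPKM in NR. P2ry14, a receptor for UDP sugars, had 0.00648, 0.0142 and 0.0175 FPKM in Run and 207, 0 and 42.6 in NR, and Cox4i2, a cytochrome c oxidase subunit of pericytes, had 34.7, 0 and 41.0 FPKM in Run and 191, 30.1 and 0 FPKM in NR. These 3 genes were highest in NR replicate 1, which had 4 of the 20 genes at 1 FPKM or more, against 10 in NR replicate 2. Abcc9, the channel partner of Kcnj8, and Anpep, a surface enzyme of pericytes, were listed at 0 in all 6 libraries.

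**Figure D5:**
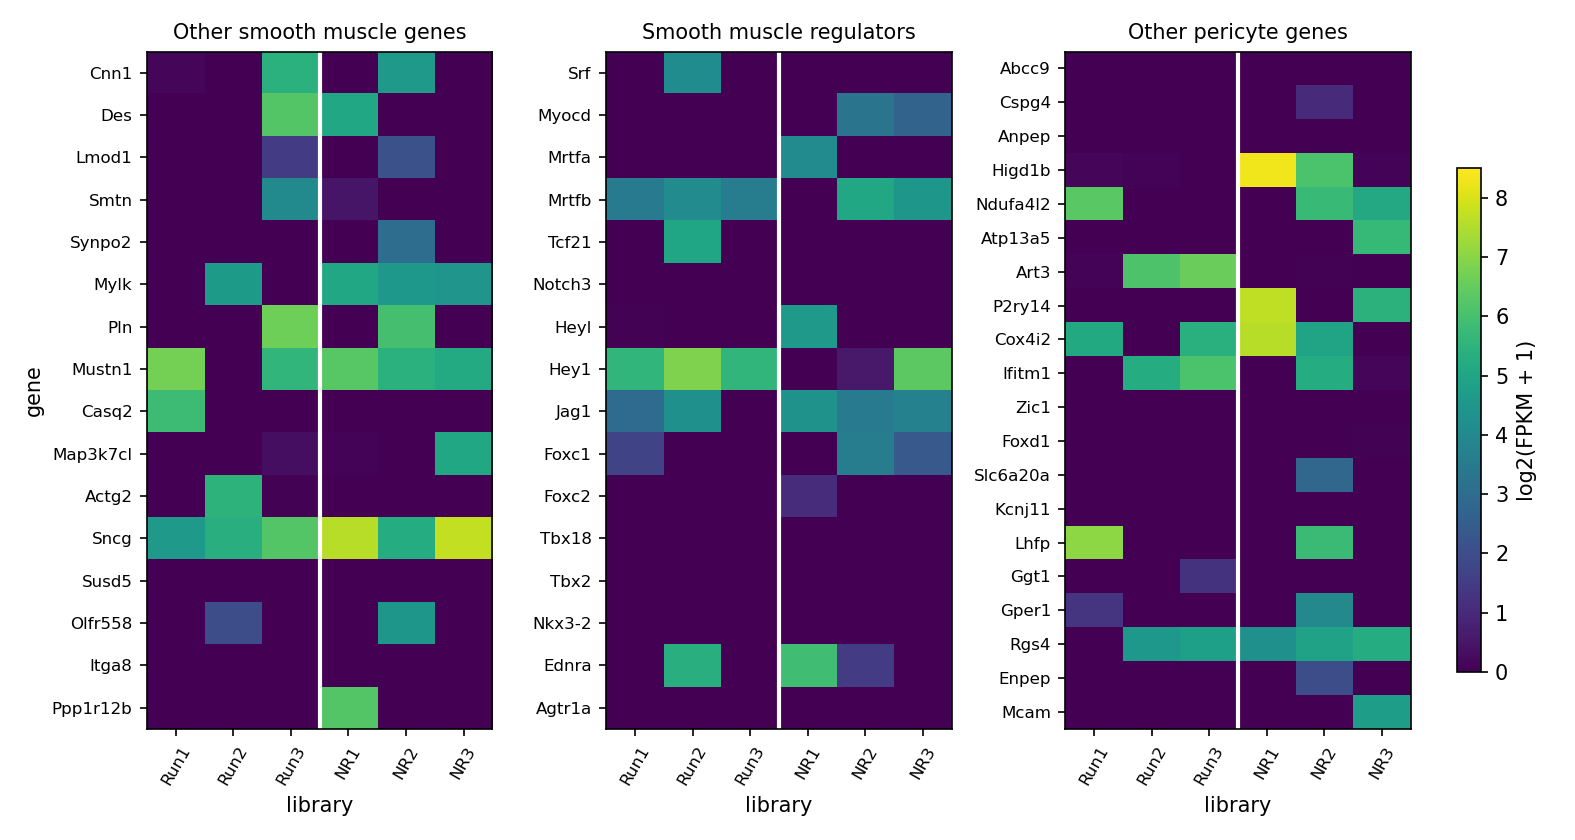
Heat maps of log2(FPKM + 1) for 16 other smooth muscle genes, 16 of their regulators and 20 other pericyte genes, with Run libraries left of the white line and NR libraries right of it. Most cells are at or near 0, and rows with signal in all 6 libraries are rare, Sncg being the 1 row with at least 1 FPKM throughout.

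Signals between endothelium and mural cells were measured by 16 genes, of which 6 were tested, 1 with a positive and 5 with a negative difference, and none passed. Pdgfb, the ligand of the Pdgfrb receptor, exceeded 1 FPKM only in NR replicate 2, at 20.1, which was also the 1 library with Pdgfrb. That library had the most genes of at least 1 FPKM, 7355 against 5426 to 6291 in the others. It also had the most of these 16 genes at that level, 10. Pdgfb too was chosen after its values were seen. S1pr1, the sphingosine phosphate receptor of endothelium and of astrocytes, was present throughout at 91.4, 143 and 61.6 FPKM in Run and 97.7, 128 and 128 FPKM in NR. Eng, a TGF-beta coreceptor, had 0.580, 11.54 and 9.84 FPKM in Run and 13.999, 106 and 7.49 FPKM in NR. Acvrl1, which acts with Eng, had 0, 10.97 and 31.6 FPKM in Run and 87.5, 36.5 and 0.0335 FPKM in NR.

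Markers of other vascular and brain cells gave the setting of these values. Endothelial markers, 15 in all, were each tested, 6 with a positive and 9 with a negative difference and a median of -0.46, and none passed. They summed to between 1587 and 2591 FPKM in Run and between 1343 and 3725 FPKM in NR. Their most abundant genes were Ly6c1, a surface protein, at 549, 737 and 1010 FPKM in Run and 671, 1228 and 379 FPKM in NR, Ly6a, another surface protein, and the tight junction gene Cldn5. The endothelial sum was highest in NR replicate 2 and lowest in NR replicate 3, so it did not follow the contractile sum, which peaked in NR replicate 1. Fibroblast markers had low listed values: Dcn and Col1a2 were listed at 0 in all libraries, 6 of 12 were below 1 FPKM in all 6, and the list summed to at most 66.9 FPKM in Run and at most 30.6 FPKM in NR. Haemoglobin genes were listed at 0 throughout, and Lyz2, of myeloid cells, was the 1 blood marker with at least 1 FPKM in all libraries.

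Run replicate 2, lowest in contractile genes, was the highest library for astrocyte and microglial markers. Its 12 astrocyte markers summed to 5641 FPKM, against 2839 to 2908 FPKM in the other Run libraries and 2697 to 4865 FPKM in NR. Its 10 microglial markers summed to 1222 FPKM, against 179 to 348 FPKM in the other Run libraries and 55.0 to 557 FPKM in NR. The part of these cells in the low contractile values was not tested. By limma no astrocyte marker (12 tested, 4 positive) and no microglial marker (6 tested, 4 positive) passed. None of the 10 oligodendrocyte markers passed either, with 2 positive differences, and they summed to between 183 and 998 FPKM in Run and between 257 and 1545 FPKM in NR.

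The labelled cell type was checked the same way. Of 12 granule neuron and general neuronal markers, Snap25, of the synaptic release machinery, and Camk2a, a kinase of excitatory synapses, had at least 1 FPKM in all libraries, while Trpc6 and Tdo2 were listed at 0 in all. Prox1, Calb1, Stxbp6 and Rbfox3 were each below 1 FPKM in NR replicates 1 and 3 and above it in NR replicate 2. C1ql2 and Rfx3 were below 1 FPKM in NR replicate 1 but not in NR replicate 3. Plk5 had 40.2 and 5.16 FPKM in NR replicates 1 and 3. In all Run libraries Prox1, Calb1 and Rbfox3 were above 1 FPKM. Prox1 had 3.65, 39.9 and 15.1 FPKM there, Calb1 23.2, 44.3 and 6.41, and Rbfox3 120, 5.62 and 18.2. Stxbp6 and C1ql2 were listed at 0 in Run replicate 3 and Plk5 in Run replicate 2, and Rfx3 stayed below 1 FPKM in Run. The markers were thus uneven between libraries. Of the 8 tested, 6 had a positive and 2 a negative difference, with none passing. The list summed to between 269 and 769 FPKM in Run and between 279 and 558 FPKM in NR, below the contractile sum in 2 of 3 Run libraries and in all 3 NR libraries. Both sums rest on which genes were listed, so they do not rank cell types by amount. The libraries had 5426 to 7355 genes with at least 1 FPKM in a table with 83.1% of its values at 0.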

How the data were processed

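RNA of sorted tdTomato-positive cells was measured in 6 Smart-seq2 libraries, 3 Run and 3 NR, all labelled as 1 batch. The deposited values are FPKM, made by the authors. Per the submitters' processing notes, Trimmomatic 0.39, STAR 2.7.5c and StringTie 2.1.7 were used with build mm10, and neither their roles nor the annotation are given in the sources used here. Smart-seq2 amplifies cDNA by PCR without molecular identifiers. FPKM hold no read totals. The worth of 1 read was sought in FPKM times length of genes that have only 1 annotated transcript: only 31 to 50 values per library lay within 1% of 1 or 2 steps of the best step, so depth is unknown. Any 2 libraries differed in at least 99.99% of their values above 0.

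Of 55367 genes, the 6155 that reached 1 FPKM in 3 or more libraries were tested on log2(FPKM + 1). The test was the 2-sided one of limma 3.58.1 (R 4.3.3), its prior variance following mean expression, and p-values were adjusted by Benjamini-Hochberg across these genes, with 0.05 as the threshold. That scale understates changes of low genes. The fit was tested on simulated data with a smaller spread than the median residual SD of all tested genes, 1.98 on the log2 scale. That simulation therefore does not show what size of change could be found here. Means ± SD are given for genes with at least 1 FPKM in all libraries. Text names all members and all myosin light chain, tropomyosin, transgelin and muscle actin paralogs. From other lists it names at most the 3 genes of highest mean FPKM, besides genes said to be chosen after their values were seen. Genes listed at 0 and the markers of the labelled cell are named beside counts. Members and lists were chosen with earlier results of these data known. Coordinates come from GENCODE M21, which held 53289 of the symbols. Alternatives were other pseudocounts, filters, scalings and weights, no trend, a replicate block and leaving out each library. Tables were made with Python 3.11.15.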

Additional observations from a re-analysis of the deposited data

How the results depend on the processing

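Each result was recomputed under 16 alternatives, and no gene and no member reached a limma adjusted p under 0.05 in any of them. Without Run replicate 3, Tpm2 (limma unadjusted p = 0.028) and Myl9 (limma unadjusted p = 0.036) fell under 0.05, as did 323 of all 6155 tested genes. No member had an unadjusted p under 0.05 in any other alternative. All 6 tested members kept the sign of their difference in every alternative in which they were tested. Differences ranged from -0.96 to -0.02 for Acta2, from -1.73 to -0.54 for Myl9, from -2.36 to -0.12 for Tagln, from -4.78 to -0.62 for Tpm2, from -3.73 to -1.03 for Cald1 and from 0.28 to 0.92 for Rgs5. Requiring FPKM of at least 1 in all 6 libraries left fewer genes and gave 82 in place of 304 genes at an unadjusted p under 0.05, and left out Tpm2 and Cald1. Leaving out 1 library at a time gave 302 to 365 such genes, a contractile median of -2.36 to -0.59 and an Rgs5 difference of 0.28 to 0.92. The contractile median was -0.59 without Run replicate 2, -1.10 without NR replicate 1 and -2.36 without Run replicate 3. Libraries with the same replicate number did not deviate together (Pearson r across genes of 0.00 to 0.02 for the 3 pairs, which is a description), and the replicate block gave 251 genes at an unadjusted p under 0.05 and 0 adjusted calls. Scaling moved the median of all tested genes by less than 0.1 on the log2 scale. Myh11, Vtn and Pdgfrb, outside the filter, were fitted only with no filter beyond a value above 0 in at least 1 library, where their differences were -2.03 ± 1.16, 4.18 ± 1.96 and -1.31 ± 1.15 (SE), each with a limma adjusted p = 0.712. Kcnj8, listed at 0 throughout, had no fit. Depth is unknown, and the wide intervals of Tagln, Tpm2 and Cald1 limit what 3 libraries against 3 can show.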
